A study of Mus musculus with 8 samples.

Results

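RNA-seq of sorted pre-B cells listed 94 transcripts in one genotype only. Each had a TPM (an abundance corrected for transcript length and scaled to a fixed total per library) of 0 in both libraries of one genotype and of 5 or more in both libraries of the other, and belonged to a gene with at least 2 listed transcripts; Nfkb2 and Dido1 were left out. Of the 94, 36 were listed in WT only and 58 in Dido1∆E16 only. They came from 87 genes, 7 of which had a transcript in each direction, and were drawn from 63753 transcripts in all, 18093 of them in genes with several listed transcripts. The transcripts were chosen by the TPM of these same libraries, so their TPM are given as a description without a test.

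Most mammalian genes can give several transcripts, which differ by the promoter they start from, by the splice sites they use, by exons they skip or by introns they keep. Such sister transcripts share most of their exonic bases, so a program that shares out short reads has to place the same reads on one of them or on several. In B cell precursors, transcript choice is known to matter for surface receptors, immunoglobulins and the splicing factors themselves.

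The study deleted exon 16 of Dido1, the 3′ terminal exon that encodes the C terminus of the Dido3 protein. The mutant mice were Dido1flE16/∆E16;R26R-EYFP;iCreVav1 and are called Dido1∆E16; the controls, called WT, were Dido1flE16/+;R26R-EYFP;iCreVav1 littermates. The controls therefore carried a floxed allele, the reporter and the same Cre, which the Vav1 promoter drives in hematopoietic cells. All were C57BL/6 mice, and the RNA and accessibility libraries came from males of different ages. Pre-B cells were sorted by surface markers from bone marrow of pooled mice, and 2 libraries per genotype were sequenced from separate pools. Chromatin accessibility was measured in LSK cells, the bone marrow precursors upstream of the B lineage, also with 2 libraries per genotype. The pre-B libraries held 1120.6 to 1635.1 megabases aligned to exons, with 17136 to 19574 transcripts above 0. The coverage of Dido1 exon 16 (chr2:180657963-180662583), scaled to TPM, was 24.6 and 21.8 in WT against 0.295 and 0.0843 in Dido1∆E16 libraries. Of the B lineage markers, Cd79a lay between 3648 and 4476 TPM, Pax5 between 786 and 835, Ebf1 between 427 and 465, Cd79b between 3393 and 4458, Rag1 between 696 and 831 and Rag2 between 165 and 282 in the 4 libraries. The surrogate light chain genes did not overlap between the genotypes, with Vpreb1 at 108 and 40.9 in WT against 1222 and 738 and Igll1 at 112 and 34.4 against 424 and 252. The 4 mature B markers summed to 507 and 636 in WT against 454 and 604 in Dido1∆E16 libraries. Of these, Ms4a1 and Cd22 overlapped between the genotypes. Fcer2a (65.6 and 63.6 against 29.1 and 46.7) and Cr2 (3.72 and 1.94 against 1.38 and 1.73) were lower in both Dido1∆E16 libraries, as were 15.6% of all gene sums. The sums overlapped between the genotypes for the 9 neutrophil and monocyte markers (244 and 2213 against 1071 and 9659) and for the 8 erythroid markers (301 and 922 against 677 and 8641, with Hba-a1, Hbb-bt and Car1 at 0). They did not overlap for the 3 plasma cell markers (125 and 110 against 69.6 and 60.0) and the 6 T and NK markers (6.92 and 4.55 against 8.18 and 26, with Cd3e, Cd3g and Ncr1 at 0). Sdc1 made most of the plasma cell sum (121 and 102 against 64.4 and 57), while Prdm1 and Jchain were at most 7.10 and overlapped. In the T and NK sum, Nkg7 was at 16.3 in Dido1∆E16 replicate 2 and at 0 in the other libraries. The part of other cells in the results was not tested. In sorted bulk samples, fewer cells of a type and less RNA per cell cannot be told apart.

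Several of the most abundant of these transcripts parted from their sister at a splice site or an intron, some of them with a few more bases at the ends. The splice sites at which they part are shown here 5′ to 3′ on the strand of the gene, 30 bases each from GRCm38, the build of the deposited coordinates, with exon bases in lower case and intron bases in capitals. In Ypel3 the donor of the Dido1∆E16 transcript lies 100 bases upstream of that of its sister, in Psmd2 the acceptors lie 92 bases apart, and in Mtmr3 the donors lie 9 bases apart. In Arpc2, Abhd17a and Igll1 one transcript removes an intron that the other keeps. These sites are those of the annotated transcripts. The reads were aligned without splitting them at introns, so the use of a site was not observed directly.
Ypel3 uc009jsp.1 donor, Dido1∆E16 only, chr7:126777089-126777118, plus strand: acgcgcccaggcgagGTGAGGCCTGGACCG
Ypel3 uc009jsq.1 donor, sister, chr7:126777189-126777218, plus strand: atcccctcgccccagGTGAGCCCCGGGGTC
Psmd2 uc007yqq.2 acceptor, Dido1∆E16 only, chr16:20652229-20652258, plus strand: CCCCTAACCCTCCAGtctgaggaggacaaa
Psmd2 uc007yqr.2 acceptor, sister, chr16:20652137-20652166, plus strand: TCTTCTTGTCCATAGacattcacactcttc
Mtmr3 uc007hux.1 donor, WT only, chr11:4487219-4487248, minus strand: tttggagatgaagtgGTAAGTTAGGTCAGG
Mtmr3 uc011xqx.1 donor, sister, chr11:4487210-4487239, minus strand: gaagtggtaagttagGTCAGGATTCCTTTG
Arpc2 uc007bln.1 donor, intron removed in the Dido1∆E16 only transcript, chr1:74236596-74236625, plus strand: agcttcgggggccagGTCGGTCGGGTGGTG
Abhd17a uc007gdv.2 donor, intron removed in the Dido1∆E16 only transcript, chr10:80584128-80584157, minus strand: cgatgctttccctaaGTGAGCATGGGGGCG
Igll1 uc007yje.1 donor, intron removed in the WT only transcript, chr16:16862414-16862443, minus strand: agctcacaatcctagGTAAGTGGTTCTCAT
Igll1 uc007yje.1 acceptor of the same intron, chr16:16861120-16861149, minus strand: TCTCTATCTGCGCAGgtcagcccaagtctg
Each donor begins with GT and each acceptor ends with AG. Over all introns that no sister has, 98.2% of the 114 in the members were GT-AG, against 98.4% in the transcripts with a TPM of 5 or more in all 4 libraries.

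The levels of the 94 transcripts spread widely. Their mean TPM over the libraries that listed them ranged from 5.42 to 801, with a median of 23.0 for the WT only and 12.8 for the Dido1∆E16 only transcripts. A mean of 100 or more was reached by 3 WT only and 8 Dido1∆E16 only transcripts, and 51 transcripts were under 20. In 69 the replicates lay within 1.5 times of each other, and in 6 they lay more than 3 times apart, namely Igll1 uc007yje.1, Mtmr3, Ankrd11, Vps28, Ilkap and Ralgps2. Where it was listed, a member held a median of 80.3% of the summed TPM of its gene. Just inside the threshold in WT were Pfkm uc011zyq.1 (5.36 and 5.69), Ncor1 (5.35 and 8.73) and Ift52 (8.70 and 5.63), and just outside it Map7 (9.17 and 4.82), Uap1 (4.35 and 22.5) and Pla2g16 (4.21 and 3.97). In Dido1∆E16, Zfp955a (5.02 and 5.81), Tspan17 (5.59 and 5.46) and Igf1 (6.10 and 5.21) were just inside, and Tnrc6b (4.94 and 5.63), Hopx (7.38 and 4.93) and Acot1 (5.48 and 4.93) just outside.

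**Figure D1:**
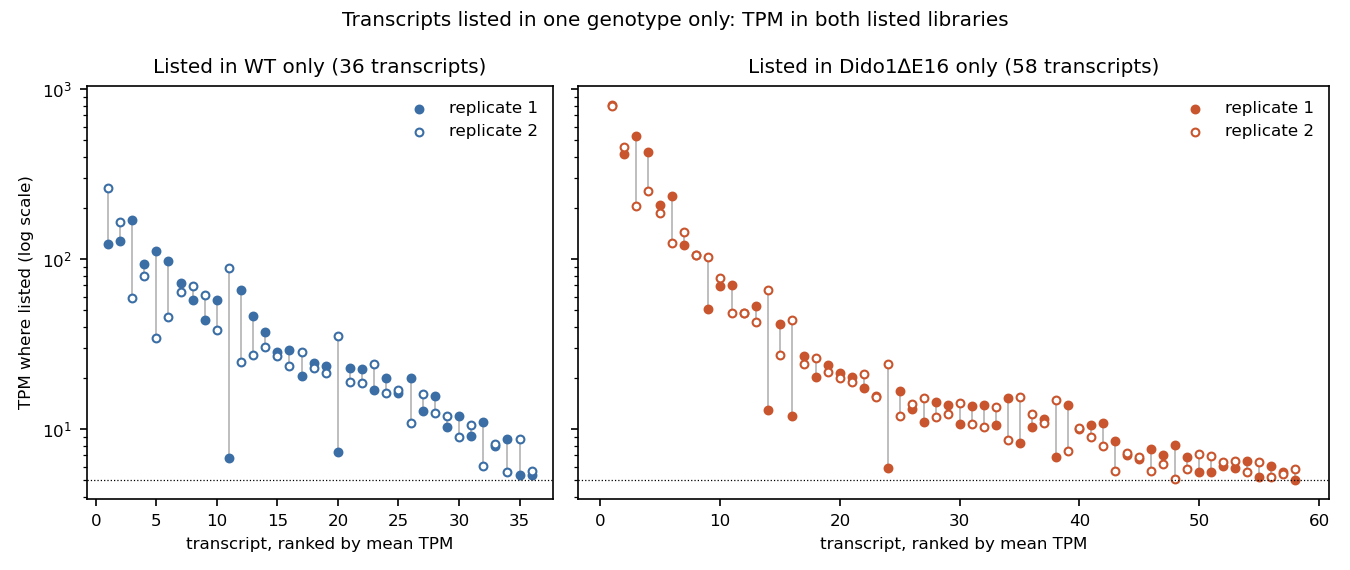
TPM on a log axis of the 36 WT only (left) and 58 Dido1∆E16 only (right) transcripts in both libraries that list them, ranked by their mean; filled points are replicate 1, open points replicate 2 and the dotted line is the threshold of 5. Means run from 801 down to 5.42, and the replicates of 6 transcripts lie more than 3 times apart.

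A transcript listed in one library was often at 0 in the replicate. Of 121 transcripts at 0 in both Dido1∆E16 libraries and at 5 or more in WT replicate 1, 36 were at 5 or more in WT replicate 2, 79 were at 0 there and 6 lay between. Of 157 transcripts at 0 in both WT libraries and at 5 or more in Dido1∆E16 replicate 1, 58 were at 5 or more in Dido1∆E16 replicate 2, 83 were at 0 and 16 lay between. Within a genotype, 247 and 327 transcripts were at 0 in one WT library and at 5 or more in the other, and the same held for 224 and 358 transcripts between the Dido1∆E16 libraries, all in genes with several listed transcripts.

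The sister transcripts divided the members into 5 kinds. For 17 members (7 WT only, 10 Dido1∆E16 only), a sister was listed in the opposite way, at 5 or more in both libraries of the other genotype and at 0 where the member was listed. For 48 members (23 and 25), a sister had a TPM of 1 or more in all 4 libraries. For 8 members (3 and 5), other sisters kept the gene at 1 or more in both libraries of the other genotype. For 16 members (2 and 14), the sisters summed to under 1 in both libraries of the other genotype, and the last 5 (1 and 4) were mixed between its libraries. The first 3 kinds together are genes that were listed in all 4 libraries by one transcript or another.

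Ypel3, a member of the Yippee family of small zinc-binding proteins, had the most abundant of these transcripts. Its transcript uc009jsp.1 was listed at 809 and 793 TPM in Dido1∆E16 replicates 1 and 2 and at 0 in both WT libraries, while uc009jsq.1 had 852 and 1052 in WT against 71.0 and 46.5 in Dido1∆E16 libraries. For uc009jsp.1 this gap was fixed by the rule, so nothing is read from it. The groups did not overlap for uc009jsq.1 either. A share over all transcripts was not counted. Over all gene sums, both Dido1∆E16 libraries lay above both WT libraries in 27.2% and below them in 15.6%. The transcripts uc009jsp.1 and uc009jsq.1 share every exon but the end of the first. There uc009jsq.1 holds 100 more bases, and uc009jsp.1 has no base of its own. Coverage of the last exon, on the TPM scale, was 952 and 1260 as assigned to uc009jsq.1 in WT and 810 and 839 as assigned to uc009jsp.1 in Dido1∆E16 libraries. The gene sum was 852 and 1052 in WT against 880 and 840 in Dido1∆E16 libraries, which overlap.

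Arpc2, a subunit of the Arp2/3 complex that nucleates branched actin filaments, was listed mainly by a different transcript in each genotype. Its transcript uc007bln.1 was listed at 413 and 459 TPM in Dido1∆E16 libraries and at 0 in WT, and uc007blo.1 at 451 and 402 in WT only. The first removes an intron of 207 bases from the 5′ end (chr1:74236611-74236817), which lies within the first exon of the second. The most covered exon had 1180 and 1026 as assigned to uc007blo.1 in WT and 1024 and 1217 as assigned to uc007bln.1 in Dido1∆E16 libraries. The gene sums of 451 and 442 against 415 and 462 TPM overlapped. They include uc007blp.1, at 0 and 40.2 TPM in WT against 2.26 and 3.68 in Dido1∆E16 libraries. Arpc2 was the only one of the 41 actin and cytoskeleton genes examined that had a member, beside 87 of the 11850 genes fitted in all.

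Abhd17a, an enzyme that removes palmitate from proteins, also parted over a short intron. Its transcript uc007gdv.2 was listed at 207 and 188 TPM in Dido1∆E16 libraries, and its sister uc007gdw.2, which keeps an intron of 79 bases (chr10:80584064-80584142), had 321 and 336 in WT against 114 and 132 in Dido1∆E16 libraries. The gene sum was 321 and 336 in WT against 322 and 320 in Dido1∆E16 libraries. Psmd2, a non-ATPase subunit of the 19S cap of the proteasome, had uc007yqq.2 at 69.1 and 77.8 TPM in Dido1∆E16 libraries. Its sister uc007yqr.2, with 92 more bases at the start of the second exon, had 74.1 and 58.3 in WT against 14.9 and 6.17 in Dido1∆E16 libraries, so that the gene sums (74.1 and 58.3 against 84.0 and 83.9) did not overlap. Bases that all sisters lack numbered 32 in the Arpc2, 6 in the Abhd17a and 0 in the Ypel3 and Psmd2 members.

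Igll1 encodes λ5, which with VpreB forms the surrogate light chain of the pre-B cell receptor. The spliced transcript uc007yje.1 was listed at 112 and 34.4 TPM in WT only, and uc057bhj.1, which keeps the 1294-base intron before the last exon (chr16:16861135-16862428), only in Dido1∆E16, at 424 and 252. The exon that both have at their 5′ end was covered at 66.9 and 18.6 in WT against 741 and 425 in Dido1∆E16 libraries. The exon of uc057bhj.1 that holds the intron was covered at 375 and 225. Gene sums of 112 and 34.4 against 424 and 252 TPM did not overlap, with a log2 fold change of 2.37 (standard error 0.64, limma adjusted p = 0.327), which did not pass the test.

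Il12a encodes the p35 chain shared by interleukins 12 and 35. Its transcript uc008plv.3 was listed at 123 and 263 TPM in WT, and uc008plu.3, which starts 780 bases upstream, at 236 and 125 in Dido1∆E16 libraries, each at 0 in the other genotype. The first exon of uc008plu.3, its only own exon, was covered at 5.55 and 2.45, against 255 and 135 over its other exons, and thus at 2.05% of them. The exons downstream were common to both transcripts, and the gene sums overlapped.

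**Figure D2:**
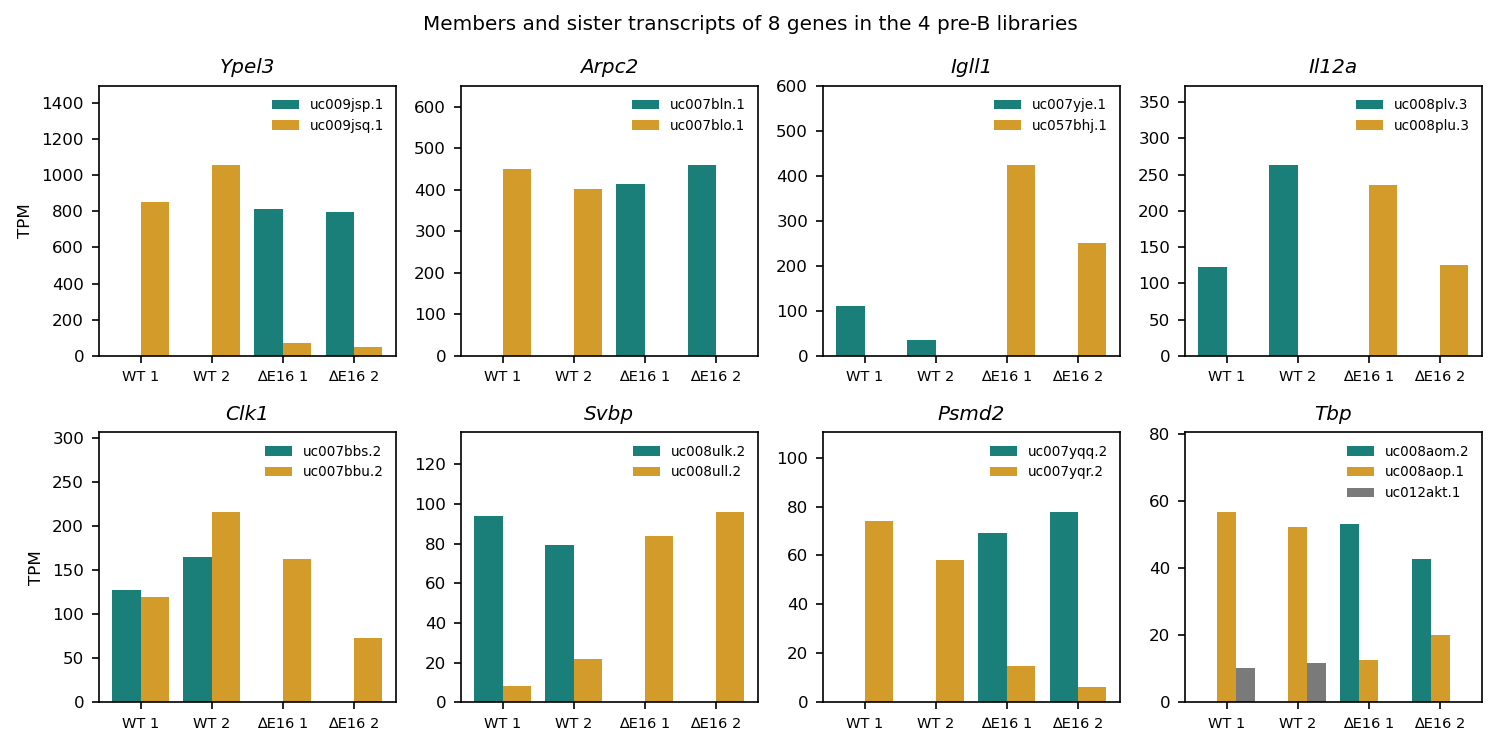
TPM of the member and its sister transcripts in 8 genes, with 1 bar per transcript in each of the 4 pre-B libraries (WT 1 and 2, Dido1∆E16 1 and 2) and axes that start at 0; a missing bar is a TPM of 0. In Ypel3 most of the TPM is assigned to uc009jsq.1 in WT (852 and 1052) and to uc009jsp.1 in Dido1∆E16 libraries (809 and 793). In Clk1 the sister uc007bbu.2 is present in all 4 libraries.

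Of the 56 splicing factor genes fitted, 3 had members, where 87 of the 11850 genes fitted in all did. The gene lists were chosen with earlier results of these data known, so nothing is read from such counts. Clk1, a kinase that phosphorylates SR proteins, had uc007bbs.2 at 127 and 165 TPM in WT only. Its sister uc007bbu.2, which keeps introns of 871 and 387 bases, had 120 and 216 in WT against 162 and 72.8 in Dido1∆E16 libraries, which overlap. The gene sums of 247 and 380 against 162 and 96.5 did not overlap (log2 fold change -1.28, standard error 0.35, limma adjusted p = 0.327). U2af2, the large subunit of the factor that binds the polypyrimidine tract, had uc009ezw.3 at 57.4 and 69.6 in WT only, of the GENCODE type retained intron, beside uc009ezu.3 at 179 and 125 against 211 and 136. Hnrnph1, a heterogeneous nuclear ribonucleoprotein, had uc007isk.1 at 533 and 206 in Dido1∆E16 only, and uc007isj.1 at 510 and 347 in WT against 0 and 191 in Dido1∆E16 libraries. One Dido1∆E16 library therefore listed a single Hnrnph1 transcript and the other both. None of the 56 gene sums was called by limma, which called 0.0253% of all gene sums in each direction, 3 had an unadjusted p under 0.05, where 1381 of the 11850 gene sums over all genes did, and their median log2 fold change was -0.11, beside 0.07 over all genes fitted.

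Of 56 B lineage genes fitted, Igll1 and Mef2c had members. Mef2c, a MADS-box transcription factor of early lymphoid cells, had uc007rie.2 at 20.7 and 28.4 TPM in WT only, beside uc007rih.2 at 19.1 and 26.2 in WT against 38.6 and 36.3 in Dido1∆E16 libraries. The 5′ most exons of uc007rie.2, exons 1 and 2, had a coverage of 0 in both WT libraries too, so its TPM came from exons that sisters hold. None of the B lineage gene sums was called (limma, 12 with an unadjusted p under 0.05; median log2 fold change -0.03). No member belonged to the 36 small GTPase and G protein regulators, the 86 cytosolic ribosomal proteins or the 65 chromatin regulators fitted. In these limma called no gene sum, with 6, 2 and 2 at an unadjusted p under 0.05. For actin and cytoskeleton genes it called none, with 1 at that p. The lists do not hold every gene of a kind, and the members Ncor1, Hira, Gse1 and Phf14 are on none of them. Single transcripts on the small GTPase list were called by limma, with Rgs19 uc008onc.2 and Pkig uc008nti.2 higher and Rgs19 uc008ong.2 lower. None of them is a member, and over all transcripts 0.0916% were called higher and 0.0611% lower.

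The genes with a member in each direction included Igll1 and Il12a. Tbp, the TATA-binding protein, had uc008aom.2 at 53.3 and 42.9 TPM in Dido1∆E16 only, uc012akt.1 at 10.3 and 11.9 in WT only, and uc008aop.1 at 56.8 and 52.2 in WT against 12.8 and 20 in Dido1∆E16 libraries. The gene sum lay between 62.9 and 67.1 in the 4 libraries, the narrowest range of these genes. Bphl, a serine hydrolase, had 24.4 and 22.8 in WT from uc007qba.1 and 10.3 and 12.4 in Dido1∆E16 libraries from uc007qaz.1. Mdfic, with a MyoD family inhibitor domain, had uc009azd.2 at 12.7 and 16.1 in WT and uc009azc.2 at 20.3 and 26.2 in Dido1∆E16 libraries. Pfkm, the muscle form of phosphofructokinase, had 5.36 and 5.69 from uc011zyq.1 and 10.7 and 14.3 from uc007xlv.2, which start 15882 and 3589 bases from the nearest sister start. Jcad, a protein of endothelial junctions, had 7.98 and 8.22 from uc008dyl.1 and 13.2 and 14.1 from uc012ayy.1, which each start 14139 bases from the nearest sister start. For Tbp the gene sums overlapped, for Bphl they were lower without a call and for Mdfic, Pfkm and Jcad higher in both Dido1∆E16 libraries.

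Other members stood beside a sister that took the larger share in the other genotype. Tnfaip8, a regulator of cell survival, had uc008ewv.2 at 105 and 106 TPM in Dido1∆E16 only and uc012bcy.1 at 126 and 148 in WT only, with starts 73855 bases apart. Their own first exons were covered at 1.19 and 1.93 and at 12.7 and 7.90, against 117 and 118 and against 133 and 158 for the last exon that both have. Pxk, a PX domain protein kinase, had uc011zfv.1 at 121 and 145 in Dido1∆E16 only and uc007ses.2 at 144 and 117 in WT against 0.255 and 0.227 in Dido1∆E16 libraries. Svbp, the small protein that binds vasohibins, had uc008ulk.2 at 94.1 and 79.3 in WT only, and uc008ull.2, with another first exon, at 8.28 and 22.0 in WT against 83.8 and 95.9 in Dido1∆E16 libraries. The remaining exons of Svbp are the same in both transcripts. Prdx4, a peroxiredoxin of the endoplasmic reticulum, had uc009uru.2 at 98.0 and 45.6 in WT only and uc009urv.2 at 2.59 and 5.69 in WT against 27.2 and 25.9 in Dido1∆E16 libraries. Plgrkt, a plasminogen receptor, had uc008hdf.1 at 50.6 and 104 in Dido1∆E16 only and uc008hdg.1 at 80.5 and 76.9 in WT against 58.1 and 13 in Dido1∆E16 libraries.

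The replicates of WT differed from each other in the same way at some members. Chp1, a calcineurin B homologous protein, had uc008ltw.1 at 169 and 58.8 TPM in WT only, while uc008ltv.1 was at 0 in WT replicate 1, at 108 in WT replicate 2 and at 124 and 134 in Dido1∆E16 libraries. Mtmr3, a phosphoinositide phosphatase, had uc007hux.1 at 6.76 and 88.7 in WT only, and uc011xqx.1, whose donor is shown above, at 118 in WT replicate 1, 4.38 in WT replicate 2 and 100 and 117 in Dido1∆E16 libraries. For Mtmr3, WT replicate 1 was thus nearer to the Dido1∆E16 libraries than to WT replicate 2. Vps16, a subunit of the HOPS tethering complex, had uc012cef.1 at 65.8 and 24.7 in WT only and uc008mja.2 at 0 and 28.1 in WT against 52.4 and 51.2 in Dido1∆E16 libraries.

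Further abundant members lay beside a sister that was listed in all 4 libraries. Galnt1, which starts mucin-type O-glycosylation, had uc008egr.2 at 57.3 and 38.2 TPM in WT only, beside uc008egq.2 at 28.5 and 22.4 in WT against 62.1 and 72.4 in Dido1∆E16 libraries. Zfp131, a zinc finger protein, had uc007rzr.2 at 43.7 and 61.5 in WT only, beside uc007rzn.2 at 13.7 and 12.8 against 59.5 and 63.9. In both genes the sister was higher in the Dido1∆E16 libraries without overlap. Ppp2r5c, a regulatory subunit of protein phosphatase 2A, had uc011yur.1 at 70.6 and 48.4 in Dido1∆E16 only, beside uc007pbl.2 at 166 and 140 against 106 and 130. Gse1 had uc009nrb.2 at 48.5 and 48.0 in Dido1∆E16 only, beside uc009nqz.2 at 156 and 160 against 134 and 136. In these 2 genes the sister had lower values in Dido1∆E16 libraries and was still the more abundant transcript. Vps28, an ESCRT-I subunit, had uc007wlc.2 at 12.9 and 65.5 in Dido1∆E16 only, beside uc007wld.2 at 205 and 209 against 208 and 166, which overlap.

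In 15 member genes the gene sum itself was 0 in one genotype, 2 in Dido1∆E16 and 13 in WT libraries. Mrpl42, a protein of the mitochondrial ribosome that cells in general need, was among them, with gene sums of 74.0 and 66.0 in WT against 0 and 0 in Dido1∆E16 libraries, of which uc007gwi.1 made 72.3 and 64.3. Ndufa5, a subunit of respiratory complex I and not a member, was listed at 83.0 and 81.7 TPM in Dido1∆E16 libraries only. Whether a value of 0 means that RNA was absent or that the estimate failed was not tested, and such genes are only said to be listed at 0. Bckdhb, a subunit of the branched-chain keto acid dehydrogenase, had 11.9 and 8.96 in WT only. Those listed in Dido1∆E16 only were at most 41.4 TPM and included Pcp4l1 (41.4 and 27.1), Agrp, which encodes agouti-related peptide (15.2 and 8.66), the calcium-activated potassium channel Kcnn4 (11.4 and 10.9), the kinase Map3k6 (13.8 and 7.47) and the neuronal RNA-binding protein Elavl3 (9.26 and 6.44). Foxj1, a transcription factor of motile cilia, was just above 0 in WT, with gene sums of 0.689 and 1.01 against 21.5 and 20.1, and Pkp3, a desmosomal plakophilin, was low in Dido1∆E16, with 17.1 and 24.2 against 1.01 and 0.195. The groups did not overlap in either, and limma called neither (adjusted p = 0.126 and 0.168).

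The gene sums of the members were compared with limma, fitted over 11850 genes. Genes with an adjusted p under 0.05 whose log2 fold change reached 0.6 in size, on the log2(TPM + 1) scale, were called, and 0.0253% of genes were called higher and 0.0253% lower. Mrpl42 was the only called member gene (lower in Dido1∆E16, limma adjusted p = 0.0341), and with any of the 4 libraries left out limma called 0 gene sums (with an unadjusted p under 0.05 in 729 to 2590). In 72 genes the sum was not 0 in both libraries of a genotype. Of these, 51 had an absolute log2 fold change under 0.6, 13 were higher by 0.6 or more and 8 lower by 0.6 or more. Over all genes, 22.0% passed 0.6 in either direction. Among the higher genes, Cenpi (0.84), Dlg3 (2.40), Phf14 (2.24) and Zfr2 (3.28) had a sum of 0 in a single WT library, which bears on their log2 fold changes. The median log2 fold change was -0.13 for 27 genes of WT only transcripts, 0.15 for 38 genes of Dido1∆E16 only transcripts and 0.63 for the 7 genes with both, beside 0.07 over all genes. Without the members themselves, the remaining transcripts had a median of 0.67 in 26 genes of WT only and of -0.35 in 32 genes of Dido1∆E16 only transcripts, a direction that the choice of the members bears on. In 40 of the 87 genes both Dido1∆E16 sums lay above both WT sums and in 17 below, where all genes gave 27.2% and 15.6%. Because the member is part of its sum and the rule used this contrast, nothing is read from these counts. Among single transcripts, limma called 0.0916% higher and 0.0611% lower, including 7 higher members (Arpc2, Abhd17a, Psmd2, Tnfaip8, Ypel3, Pxk and Igll1 uc057bhj.1) and 3 lower (Clk1, Mrpl42 and Svbp), which is likewise a description.

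**Figure D3:**
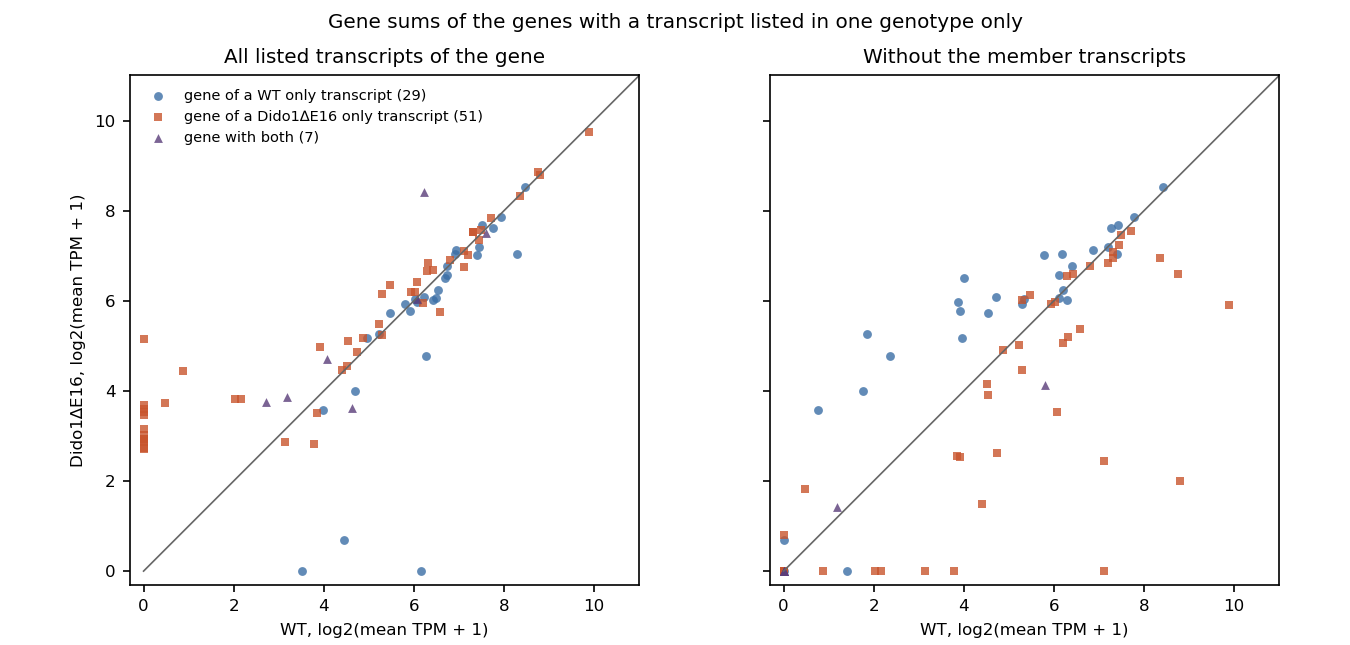
Mean TPM of each gene in WT (x) and Dido1∆E16 (y) libraries as log2(mean TPM + 1), for all listed transcripts of the gene (left) and without the members (right); circles, squares and triangles are genes of WT only, of Dido1∆E16 only and of both kinds of transcript, and the line marks equal values. Most genes lie near the line on the left, where the median log2 fold change of 72 genes is 0.06, and on the right genes of WT only transcripts lie mostly above it (median 0.67) and those of Dido1∆E16 only transcripts below it (median -0.35).

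Structure was compared between the members and the 3884 transcripts of genes with several transcripts that had 5 TPM or more in all 4 libraries. The members had a median of 2359 exonic bases and 8 exons, against 3241 bases and 11 exons. They shared a median of 85.7% of their exonic bases with the nearest sister, against 84.9%, and 23.4% against 18.8% held no base of their own. Elavl3, Map3k6, Zfr2, Zfp955a, Ncor1 and Gm21992 held the most, from 1955 to 3441 bases. The first exon overlapped the first exon of no sister in 38.3% of members (36 of 94) against 23.4%, and the start lay over 1000 bases from every sister start in 21.3% against 15.2%. Besides Tnfaip8, Pfkm and Jcad, the far starts included Gse1 at 1552 bases, Ifi204 at 138712 bases and Agrp at 57629 bases; Ifi204 lies among closely related genes, between which reads can be split. By intron chain, 74.5% of members against 84.5% had a GENCODE transcript of protein-coding type and 8.5% against 3.9% one of retained intron type. These shares were set side by side without a test.

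Of the 94 members, 79 had a sister above 0 in the other genotype, and the most abundant such sister differed from the member by a median of 719 exonic bases. These differences were counted per member, so members that are each other's sister were counted from both sides. The first exons differed for 36 members and the last exons for 26. For 17 an internal exon was skipped by the member or the sister, and for 47 introns shared one end but not the other. Some members had several of these. The sister kept an intron that the member removed for 10 members, and the member kept one for 3 (Vps16, Igll1 and Foxj1). The Igll1 transcripts are in both of these counts. In 9 pairs 100 bases or fewer differed, among them Ccdc127 (6), Mtmr3 (9), Psmd2 (92), Vps28 (98), Plgrkt (98) and Ypel3 (100). In 17 members some exonic bases also lay in a transcript of another gene or of no named gene, mostly a small part, with Phf14 above 50%. At Ppp2r5c (38.3%) and Pxk (2.57%) it was a transcript without a gene name on the same strand. Since strand was not used in counting, reads of overlapping transcripts on either strand cannot be told apart.

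Exons that no sister has show how far the member was read outside the sequence it shares with them. In 36 members an exon overlapped no sister, and its coverage had a median of 38.0% of that over the shared exons of the same transcript, against 77.4% in 2194 transcripts of the comparison set. It was under 10% in 25% of these members (9 of 36) and in 17.8% of the comparison set. Where the own exon was the first exon alone, the medians were 29.4% in 20 members and 17.7% in 447 other transcripts. The TPM of members with low values rested mainly on exons that sisters hold. In Eif4enif1 uc007hsc.2, a transcript of the translation factor eIF4E transporter at 46.1 and 27.4 TPM in WT, the own exon had 0 and 1.41 against 48.8 and 28.9. In Gramd4, Prkar1b and Pcp4l1 the own exon was at 0, although that of Pcp4l1 is only 12 bases long. In Ilkap uc007cak.1, a phosphatase transcript at 11.9 and 44.0 TPM in Dido1∆E16, an own exon of 1678 bases had 3.05 and 4.11 against 25.6 and 105.

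Other members were read through their own exon. In Gse1 uc009nrb.2 the first exon of 154 bases had a coverage of 34.1 and 43.8, against 48.9 and 48.1 in the shared exons (80.4%). In Ghitm, a mitochondrial inner membrane protein, it was 92.8 and 78.2 against 13.3 and 8.84, and in Rnh1, the ribonuclease inhibitor, 75.4 and 45.2 against 6.27 and 5.31. In the RNA helicase Ddx50 it was 59.9 and 75.3 against 4.46 and 11.1, and in N4bp2 24.2 and 25.0 against 13.6 and 9.94. All of these are first exons of Dido1∆E16 only transcripts. Of WT only transcripts, Ankrd11 uc009nub.2 had 11.8 and 55.4 in its own last exon against 1.29 and 7.88. Own exons were also covered in Rreb1 uc007qdb.2 (94.85% of the shared exons), in the first exon of Pfkm uc011zyq.1 (78.8%) and in Bphl uc007qba.1 (63.3%). A coverage of at least 50% was reached by 4 of 12 WT only and 11 of 24 Dido1∆E16 only members with an own exon.

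**Figure D4:**
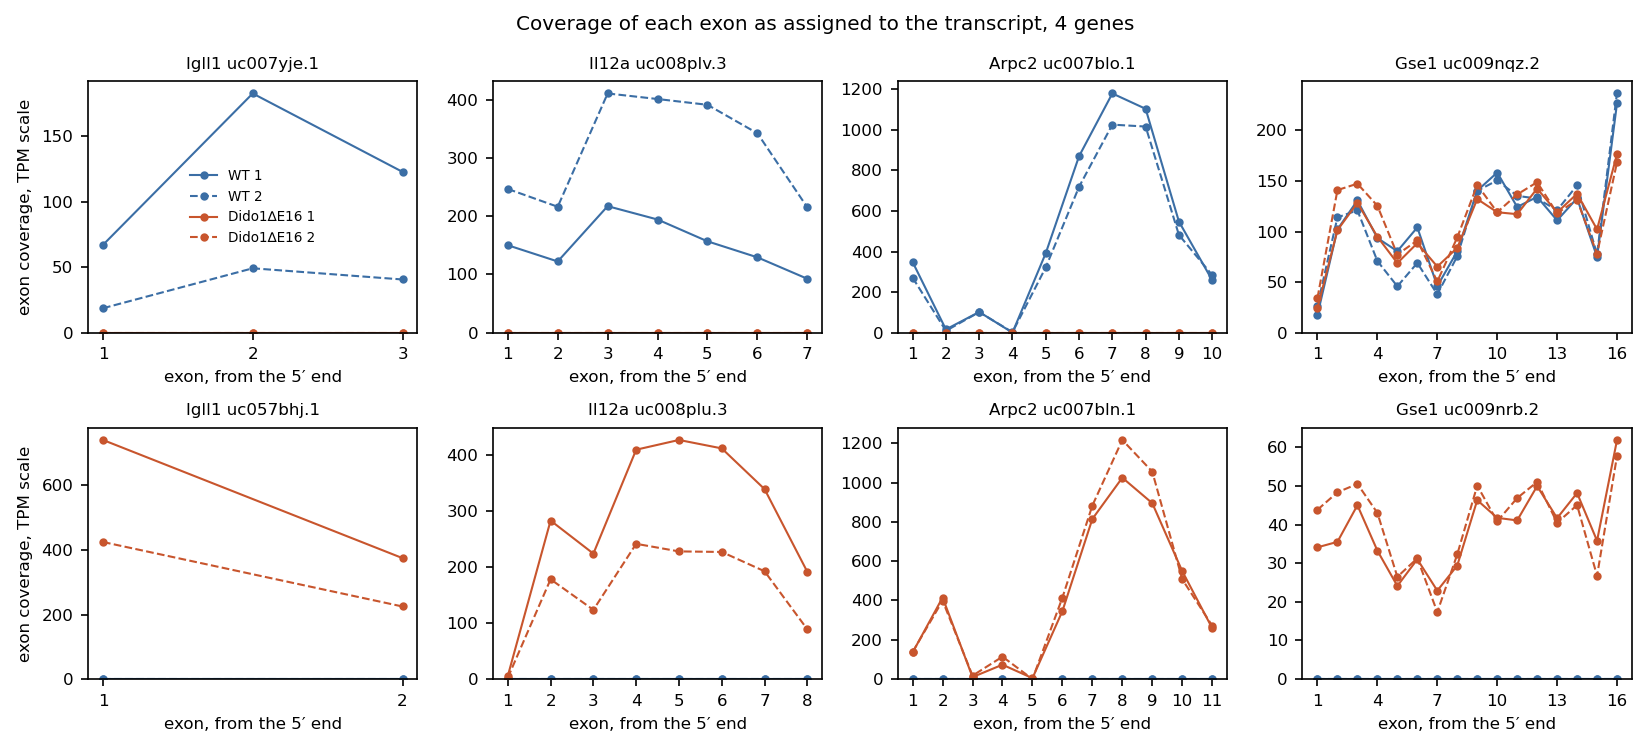
Coverage of each exon on the TPM scale, numbered from the 5′ end, as assigned to 2 transcripts each of Igll1, Il12a, Arpc2 and Gse1 in WT (blue) and Dido1∆E16 (orange) libraries, with replicate 1 solid and replicate 2 dashed. The coverage of Arpc2 has the same shape in both genotypes on different transcripts, the first exon of Il12a uc008plu.3 is near 0 (5.55 and 2.45), and that of Gse1 uc009nrb.2 is covered (34.1 and 43.8).

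Accessibility of the start sites was taken from LSK cells, which the choice of transcripts did not use. A start counted as accessible where a MACS2 peak of the library overlapped the window from 1000 bases before to 200 bases after it. Of the 92 distinct starts of the members, 68.5% and 79.3% had a peak in the WT libraries, against 62.0% and 62.0% in the Dido1∆E16 ones. The means of 73.9% ± 7.69 (SD, n = 2) and 62.0% ± 0 (n = 2) differed by -12.0 percentage points (exact two-sided permutation test, p = 0.333, the smallest that 2 against 2 libraries allow). The number of peaks was 27352 and 57739 for WT but 13208 and 16329 for Dido1∆E16 libraries, and when every library contributed its 13208 best peaks by score, the difference was 9.24 percentage points in the other direction. Of the starts of WT only transcripts, 63.9% and 75.0% had a peak in the WT libraries against 55.6% and 61.1%, and of those of Dido1∆E16 only transcripts 70.7% and 81.0% against 65.5% and 62.1%. The 3732 starts of the comparison set had 79.3% and 92.5% against 72.2% and 69.6%.

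Single starts mostly had the same state in all LSK libraries. Of the 94 members, 52 had a peak in all 4 libraries and 19 in none, among them both Igll1 transcripts, Il12a uc008plu.3, Mef2c, U2af2, Agrp and Foxj1. Svbp, Wwp2, Gse1 and Igf1 had a peak in both WT and in neither Dido1∆E16 library, and no member had the opposite pattern. Of these, Svbp and Wwp2 are WT only and Gse1 and Igf1 Dido1∆E16 only transcripts in pre-B cells. The WT libraries held more peaks (27352 and 57739 against 13208 and 16329). How many starts of the comparison set had a peak in both libraries of one genotype only was not counted, so nothing is read from this pattern. For the 20 starts over 1000 bases from every sister, whose window holds no sister start, the shares were 45% and 50% in WT against 30% and 30% in Dido1∆E16 libraries. With equal numbers of best-scoring peaks they were 20% and 25% against 30% and 25%, in the other direction, and with HOMER peaks 40% and 55% against 25% and 55%.

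**Figure D5:**
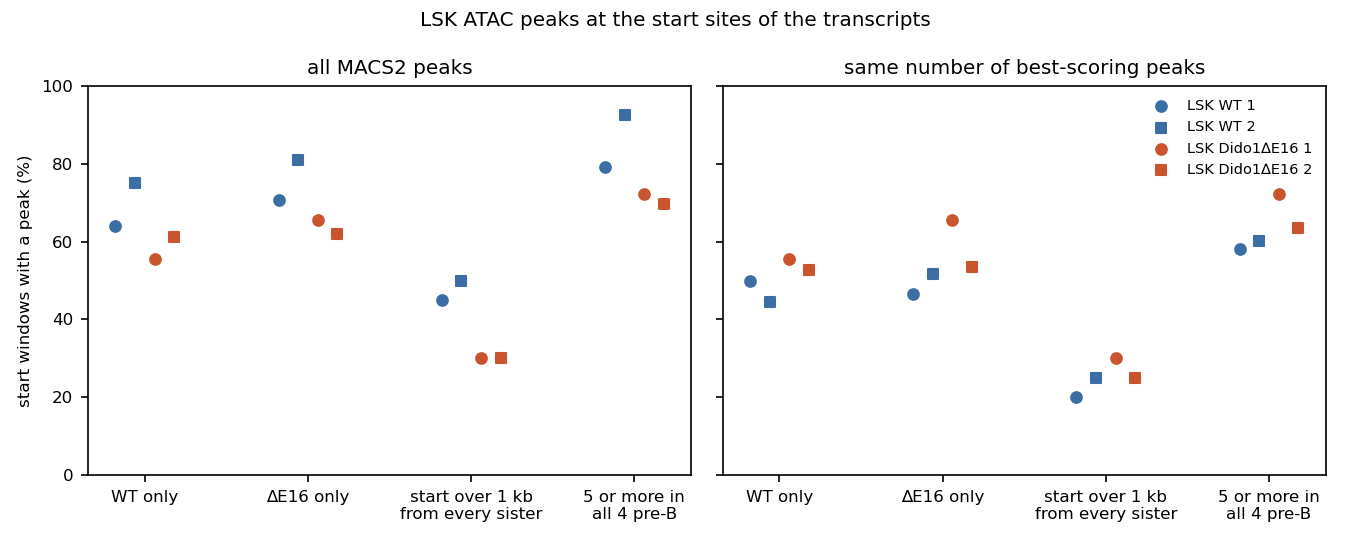
Share of start windows that hold a MACS2 peak in each LSK library (blue WT, orange Dido1∆E16, circles replicate 1 and squares replicate 2), for WT only members, Dido1∆E16 only members, members with a start far from every sister and the comparison set, with all peaks (left) and with 13208 peaks per library taken by score (right). With all peaks the WT points lie above the Dido1∆E16 points in each set, and with equal numbers of peaks the shares of the members are 47.8% and 48.9% in WT against 62.0% and 53.3% in Dido1∆E16 libraries.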

How the data were processed

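The authors aligned pre-B RNA-seq reads to mm10 with BWA-MEM 0.7.15, which does not split reads at introns, removed duplicates, and ran StringTie 2.0 without strand on the UCSC known genes, each transcript as its own gene. The deposited files give coverage of each exon, and for each transcript TPM, FPKM and coverage, without read counts. The deposited LSK peak files hold a score per MACS2 peak, and for HOMER a constant score. Columns of the authors' own comparisons (fold changes, p-values, differential peaks) were not used.

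The members and gene lists were chosen with earlier results of these data known. Symbols came from the authors' tables, and sisters and gene sums were completed from GENCODE: of the 16372 fitted transcripts, 11781 had an authors' symbol and 15918 one after completion. Exon coverage was scaled by the library's ratio of TPM to coverage. Log2(TPM + 1) of rows with a mean of at least 1 was fitted by genotype with limma 3.58.1 in R 4.3.3 (eBayes with a trend, Benjamini-Hochberg adjustment); the rest used Python 3.11.15. On simulated gene sums (11850 genes, 200 changed), 26% of changes of 2 and 66% of changes of 4 log2 units were recovered, with 1 and 5 unchanged genes called. Named were the 12 most abundant members per direction, genes with members in both directions, those at the threshold, with the farthest starts, most own bases or largest gene-sum change, and members of the lists; those in the text with the nearest splice sites, lowest or highest own-exon coverage, or LSK peaks in one genotype were chosen after their values were seen. Alternatives were another pseudocount, filter, threshold, unit, symbol source, scaling, peak set or window, a replicate block, and leaving out each library.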

Additional observations from a re-analysis of the deposited data

How the results depend on the processing

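The number of transcripts listed in one genotype only depended on the rule. With a TPM of 1 or more there were 88 in WT only and 159 in Dido1∆E16 only, with 10 or more 27 and 34, and with FPKM 23 and 21. With sisters defined by shared exonic bases there were 62 and 98, and with symbols completed from GENCODE, chosen after seeing the data, 59 and 98. Without one replicate, the counts were 80 to 150 and 150 to 202. Gene sums called higher and lower fell from 3 and 3 to 0 and 0 with a pseudocount of 0.1 (1349 at an unadjusted p under 0.05) or no filter (1632), and were 76 and 14 with eBayes without a trend. Transcripts called were 3 and 1 with the pseudocount of 0.1, 2 and 1 without the filter, and 53 and 44 without a trend. Without one replicate limma called 0 gene sums and 0 transcripts in either direction (unadjusted p under 0.05 in 729 to 2590 gene sums and 1332 to 2876 transcripts), where the lone library is assumed to vary like the others. The replicate block also gave 0 and 0 for both (1069 and 961 at an unadjusted p under 0.05); same-numbered libraries share only a number, with a correlation of deviations of 0.0516 over 11850 genes. The causes were not tested. Median-centring, a shift of 0.08 log2 units, moved the median gene-sum log2 fold change from 0.06 to -0.020 over all member genes and to -0.21 for WT only. Without the members it was 0.67 for WT only, -0.35 for Dido1∆E16 only and -0.73 for genes with both. Without WT replicate 1 and 2 the WT only median was -0.040 and -0.27, and leave-one-out values for genes with both were 0.47 to 0.73. The difference in LSK peaks reversed to 9.24 with equal numbers of peaks, and was -7.07 with HOMER peaks, -14.1 within 100 bases and -17.4 to -6.52 without one library. The files hold no counts, so the counting error of values near 5 TPM is not known, and depth was not tested against listing.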
